A study of Homo sapiens with 6 samples.

Results

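Levels of 10 genes for proteins that bundle, crosslink or line actin filaments were compared between 2 human colorectal cancer cell lines. The genes were LCP1, PLS1, PLS3, FSCN1, ACTN1, ACTN4, TAGLN, CALD1, TPM1 and TPM2. They were chosen by their function and from the measured KM12SM and SW620 levels, so that their differences between the lines are given as a description, with no test. Each of the 10 was read by 1 probe set, among 21448 probe sets on the array and 17687 genes with a name. KM12SM was derived from the KM12 colorectal cancer line and spreads to the liver, whereas SW620 was established from a colorectal tumour's lymph node metastasis. The labels name no treatment, both lines were kept in DMEM with serum, and total RNA of each was put on 3 Clariom S human arrays. The methods describe these as independent replicates of RNA, but no source used here says that separate cultures were grown. The p-values therefore rest on the spread among arrays within the lines, which could be technical. Each group is 1 established line, and a difference between them is one between these lines.

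Actin filaments are assembled into bundles, networks and contractile fibres by accessory proteins. Plastins and fascin pack filaments into tight bundles, as in microvilli and filopodia, and alpha-actinins link filaments more loosely in stress fibres and at adhesions. Tropomyosins lie along the filament and control which other proteins can bind it, while caldesmon and transgelin accompany them in contractile and stress fibres. In the gut epithelium, plastin bundles form part of the core of the brush border microvilli.

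Values are log2 signals, so that a difference of 1 is a doubling of the signal. All differences are KM12SM minus SW620, with the standard error of the limma fit. That fit pools the spread of both lines and draws it towards the spread typical of all probe sets. Array medians lay between 6.75 and 6.78 in KM12SM and between 6.71 and 6.74 in SW620. Arrays of the same line correlated with r of 0.983 to 0.992 in KM12SM and 0.981 to 0.992 in SW620, and arrays of different lines with r of 0.919 to 0.926 (Pearson's r across probe sets, which are not independent replicates). Replicate 3 stood apart in both lines, at 0.983 and 0.986 with the other KM12SM arrays, which correlated at 0.992, and at 0.981 and 0.986 with the other SW620 arrays, which correlated at 0.992. Of 7 colonic epithelium markers measured, 4 were called higher in KM12SM and 0 lower (limma, adjusted p under 0.05), beside 12.6% and 12.4% of all probe sets. Other settings called 3 to 6 of the 7 higher, and KRT18, 1 of the 4, was called in 7 of 14. The 6 came with array weights, which called 47.0% of all probe sets higher or lower. EPCAM averaged 11.9 in KM12SM and 11.7 in SW620. EPCAM, which marks epithelial cells, was therefore high in both lines. The summed linear signal of the 7 markers was 17294 to 19991 in KM12SM, against 12223 to 14108 in SW620, and CDH17 (4.95) and CDH1 (3.69) had the largest differences. Of 4 endothelial markers, 0 were called by limma, beside 25% of all probe sets. The count was 1 lower in KM12SM at an unadjusted p under 0.05, 1 lower in the methods' t-test and 1 lower with array weights. Over all probe sets, those settings called 7361 of 21448, 14.2% and 47.0%. With only 4 genes, these counts were not read as a result about endothelial cells. With 1 probe set per gene, splice forms were not told apart, and with no detection calls it was not tested which low signals lay above background.

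Promoter windows, 1 for each of the 3 plastin genes, are shown because the plastin paralogues differed in sign between the lines. An ACTN1 window is shown because it held the CArG box found among the members. PLS1, PLS3 and ACTN1 have further windows, which are counted below but not shown. All are RefSeq sequences of build GRCh38.p14, from 250 bases before to 50 after a transcription start. Capitals mark matches to the motifs searched, on both strands, and PLS3 has none. The windows are chr13:46182128-46182427 (minus strand) for LCP1, chr3:142596143-142596442 (plus strand) for PLS1, chrX:115560924-115561223 (plus strand) for PLS3 and chr14:68977517-68977816 (minus strand) for ACTN1.
LCP1: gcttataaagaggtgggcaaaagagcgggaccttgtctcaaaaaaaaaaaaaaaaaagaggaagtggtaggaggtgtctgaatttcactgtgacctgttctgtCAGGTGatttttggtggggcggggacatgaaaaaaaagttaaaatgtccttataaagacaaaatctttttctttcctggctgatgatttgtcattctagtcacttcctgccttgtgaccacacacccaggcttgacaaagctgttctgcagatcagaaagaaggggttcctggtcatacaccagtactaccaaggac
PLS1: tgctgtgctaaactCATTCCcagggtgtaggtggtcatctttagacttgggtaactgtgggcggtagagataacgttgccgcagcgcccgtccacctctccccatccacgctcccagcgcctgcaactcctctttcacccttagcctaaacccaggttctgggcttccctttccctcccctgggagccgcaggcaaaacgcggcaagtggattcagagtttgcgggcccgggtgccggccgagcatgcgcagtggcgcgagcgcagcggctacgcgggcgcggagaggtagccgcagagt
PLS3: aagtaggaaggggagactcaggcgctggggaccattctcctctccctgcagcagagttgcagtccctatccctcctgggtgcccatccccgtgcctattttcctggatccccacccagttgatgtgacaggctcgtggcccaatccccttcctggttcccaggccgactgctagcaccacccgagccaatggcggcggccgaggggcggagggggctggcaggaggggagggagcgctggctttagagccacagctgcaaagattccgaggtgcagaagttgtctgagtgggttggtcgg
ACTN1: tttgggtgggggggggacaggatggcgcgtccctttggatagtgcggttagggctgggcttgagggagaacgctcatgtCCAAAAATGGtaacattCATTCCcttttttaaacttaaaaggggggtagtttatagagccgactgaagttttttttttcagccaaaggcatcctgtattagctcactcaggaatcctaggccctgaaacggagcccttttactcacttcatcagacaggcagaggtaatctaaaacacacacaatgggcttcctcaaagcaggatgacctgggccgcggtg

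RefSeq promoters were matched for 8 of the 10 genes, giving 19 windows. The table used here has no entry for FSCN1 or TAGLN. A CArG box, the element bound by serum response factor, was found in 1 of the 19 windows, that of ACTN1 above, starting at base 80, against 1.29% of 35116 promoters. CAGGTG, an E-box bound by the ZEB and SNAI repressors, was in 1 of 19, starting at base 104 of the LCP1 window, against 20.6% of all promoters. GGAATG, a TEAD element, was in 5 of 19, belonging to PLS1, CALD1 and ACTN1, against 14.03% of all promoters. The matches did not overlap each other. A match is a stretch of letters in a window and was not read as a binding site.

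The 3 plastins did not share a direction between the lines, with LCP1 and PLS3 lower and PLS1 higher in KM12SM. LCP1 encodes L-plastin, the plastin of leukocytes that many carcinoma cells also make. Its signals were 5.49, 4.38 and 5.02 on the KM12SM arrays, against 10.19, 10.40 and 9.84 on the SW620 arrays. Every KM12SM array lay below every SW620 array, with a gap of 4.35. The means were 4.96 ± 0.56 in KM12SM and 10.14 ± 0.28 in SW620 (SD, n = 3 each), a difference of -5.18 ± 0.24 (SE), or 36.3-fold lower in KM12SM. LCP1 had the 12th most negative difference among the 21448 probe sets. Leaving out each array in turn gave differences of -5.44 to -4.89. In bulk RNA, fewer cells of a type and less RNA per cell cannot be told apart.

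PLS1 encodes I-plastin, the plastin of intestinal microvilli. Its signals were 10.28, 10.31 and 10.37 in KM12SM, against 9.36, 9.17 and 9.17 in SW620. KM12SM lay above SW620 on every array, with a gap of 0.92. The difference was 1.09 ± 0.16 (SE), or 2.12-fold higher in KM12SM. PLS3 encodes T-plastin, the form of most solid tissues. Its signals were 8.49, 8.47 and 8.77 in KM12SM, against 9.73, 9.69 and 9.73 in SW620. KM12SM was below SW620 on every array, again with a gap of 0.92. The difference was -1.14 ± 0.17 (SE), or 2.20-fold lower in KM12SM.

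**Figure D1:**
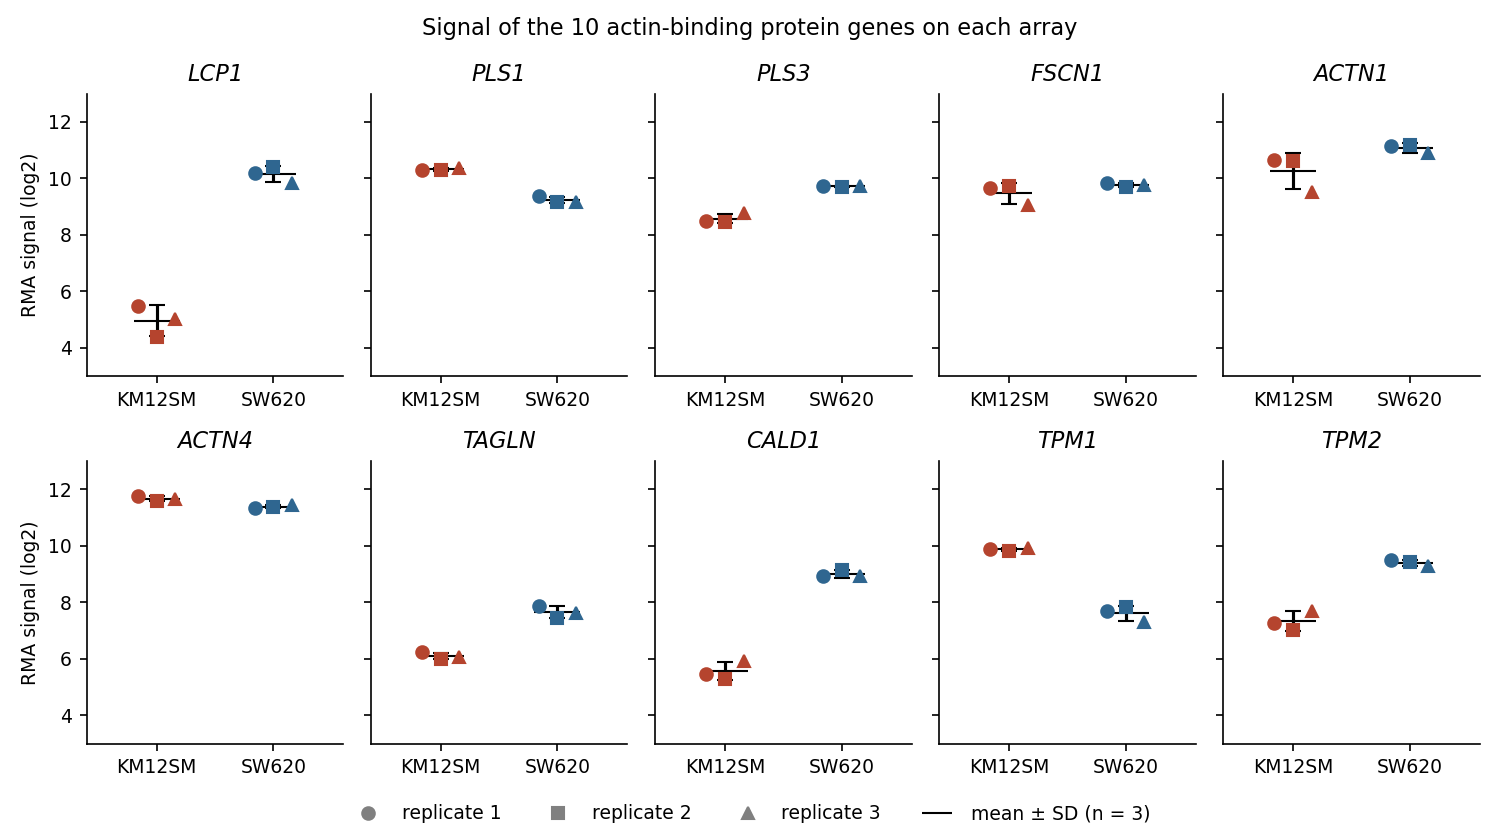
Log2 signal of each of the 10 genes on every array (points) with the mean and SD of each line, KM12SM left of SW620. LCP1 runs from 4.38 to 5.49 in KM12SM and from 9.84 to 10.40 in SW620, while the FSCN1 arrays overlap between the lines. Levels of different genes come from different probes and cannot be set against each other.

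L-plastin is a leukocyte protein, so leukocyte markers were looked at beside it. Of 8 measured, 1 was called higher in KM12SM and 0 lower, near the 12.6% of all probe sets that were called higher. The 1 was SPI1, a myeloid transcription factor named after its value was seen, with a difference of 0.57 ± 0.20 (SE) and adjusted p = 0.0484 from limma. It was called in 6 of 14 other settings, with adjusted p from 0.00424 to 0.219. PTPRC, the pan-leukocyte surface marker CD45, averaged 3.93 ± 0.50 in KM12SM and 3.90 ± 0.15 in SW620 (SD, n = 3 each). The summed linear signal of the 8 markers was 356 to 411 in KM12SM, against 299 to 401 in SW620. The part of leukocyte transcripts in the LCP1 difference was not tested beyond these values. RMA signals have no zero, and the lowest of these was 2.91, for CD2.

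FSCN1 encodes fascin, which bundles the filaments of filopodia. Its signals were 9.65, 9.72 and 9.05 in KM12SM, against 9.84, 9.69 and 9.76 in SW620. The lines overlapped, and the third KM12SM array was the lowest. The means were 9.47 ± 0.37 in KM12SM and 9.76 ± 0.075 in SW620 (SD, n = 3 each), a difference of -0.29 ± 0.19 (SE). Without KM12SM replicate 3 the difference was -0.08. It was the 1 member of the 10 whose arrays overlapped between the lines. The other fascins, FSCN2 of the retina and FSCN3 of the testis, had differences of 0.38 ± 0.18 (adjusted p = 0.147) and -0.08 ± 0.19 (adjusted p = 0.809).

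ACTN1 and ACTN4 encode the non-muscle alpha-actinins. ACTN1, found at stress fibres and focal adhesions, had signals of 10.66, 10.60 and 9.53 in KM12SM, against 11.16, 11.18 and 10.88 in SW620. KM12SM lay below SW620 with a gap of 0.22, and the third KM12SM array was the lowest of the 6. The difference was -0.81 ± 0.25 (SE), the largest standard error of the 10 genes, or 1.75-fold lower in KM12SM. Without KM12SM replicate 3 it was -0.44, or 1.36-fold. ACTN4, which is linked to cell motility and to the kidney filter, had signals of 11.76, 11.60 and 11.64 in KM12SM, against 11.34, 11.36 and 11.44 in SW620. KM12SM lay above SW620 with a gap of 0.16. The difference was 0.29 ± 0.16 (SE), or 1.22-fold higher in KM12SM. The muscle alpha-actinins ACTN2 and ACTN3 differed by 0.09 (adjusted p = 0.806) and 0.32 (adjusted p = 0.323) and were not called.

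TAGLN encodes transgelin, an actin-binding protein abundant in smooth muscle. Its signals were 6.23, 6.01 and 6.06 in KM12SM, against 7.87, 7.46 and 7.62 in SW620. KM12SM was below SW620 on every array, with a gap of 1.23. The difference was -1.55 ± 0.17 (SE), or 2.93-fold lower in KM12SM. CALD1 encodes caldesmon, which holds back the actomyosin ATPase. Its signals were 5.47, 5.29 and 5.91 in KM12SM, against 8.93, 9.15 and 8.92 in SW620. The gap between the lines was 3.01, the second largest of the members after LCP1. The difference was -3.44 ± 0.19 (SE), or 10.9-fold lower in KM12SM.

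Both genes are also smooth muscle and fibroblast transcripts. Of 9 markers of these cells measured, 0 were called in limma, beside 25% of all probe sets. The count was 1 lower in KM12SM at an unadjusted p under 0.05, 0 in the methods' t-test and 2 lower with array weights. Over all probe sets, those settings called 7361 of 21448, 14.2% and 47.0%. MYH11, the smooth muscle myosin heavy chain, averaged 5.93 ± 0.25 in KM12SM and 6.01 ± 0.29 in SW620 (SD, n = 3 each). The summed linear signal of the 9 was 1342 to 1394 in KM12SM, against 1332 to 1777 in SW620. The sum is weighted to the brightest probes, such as that of SMTN, and the part of smooth muscle or fibroblast transcripts in the TAGLN and CALD1 differences was not tested.

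The 2 tropomyosin genes had differences of opposite sign. TPM1 signals were 9.89, 9.82 and 9.92 in KM12SM, against 7.70, 7.82 and 7.32 in SW620. KM12SM lay above SW620 on every array, with a gap of 2.00. The difference was 2.26 ± 0.18 (SE), or 4.80-fold higher in KM12SM, the largest positive difference of the members. TPM2 signals were 7.26, 7.02 and 7.71 in KM12SM, against 9.48, 9.43 and 9.29 in SW620. KM12SM lay below SW620, with a gap of 1.58. The difference was -2.07 ± 0.19 (SE), or 4.20-fold lower in KM12SM. TPM4, the tropomyosin of many non-muscle cells, differed by -0.08 (adjusted p = 0.780) and was not called.

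**Figure D2:**
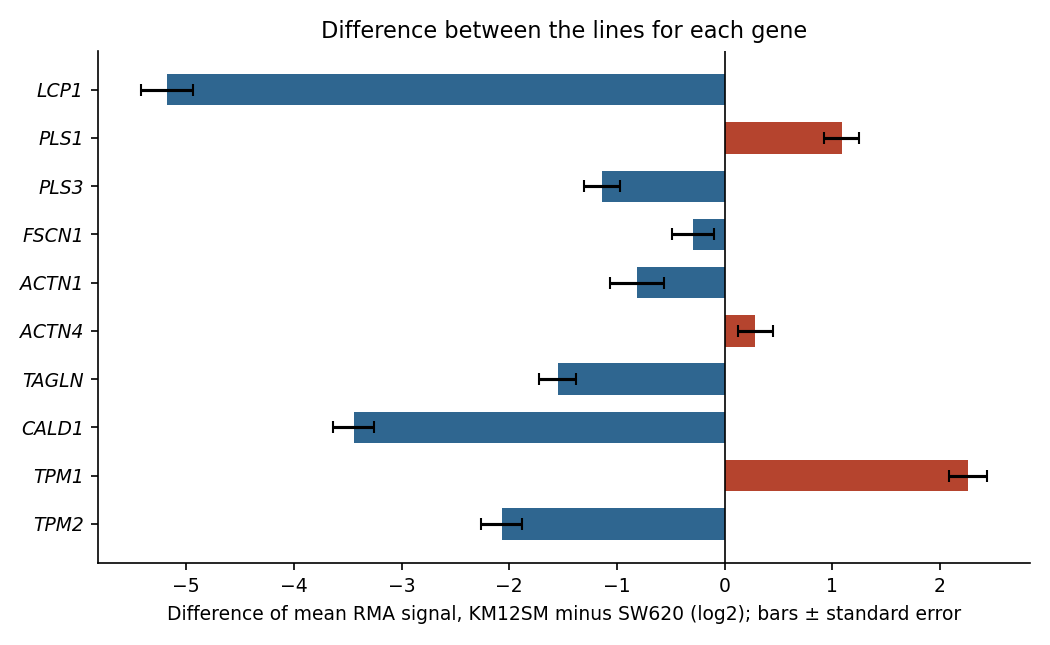
KM12SM minus SW620 difference in log2 signal for each of the 10 genes, with coloured bars for the mean difference and whiskers for its standard error. The 3 positive genes are TPM1 (2.26), PLS1 (1.09) and ACTN4 (0.29), and LCP1 (-5.18) is the most negative.

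Within each family the ratio of 2 paralogues was taken on every array and compared between the lines, which avoids setting different probes' levels against each other. PLS1 over LCP1 was higher in KM12SM by 6.27 on the log2 scale (77.0-fold), and PLS3 over LCP1 by 4.04 (16.4-fold). Relative to the SW620 mean, PLS1 over LCP1 was 5.70, 6.84 and 6.26 on the KM12SM arrays, against 0.08, -0.32 and 0.24 on the SW620 arrays. PLS1 over PLS3 was 2.23 higher (4.68-fold). TPM2 over TPM1 shifted by -4.33 (20.2-fold lower in KM12SM). Its KM12SM values spread over 0.59 and its SW620 values over 0.36, with a gap of 3.82 between the lines. ACTN4 over ACTN1 was 1.10 higher (2.14-fold), but its KM12SM values, 0.79, 0.69 and 1.80, spread over 1.11, against -0.13, -0.13 and 0.25 in SW620. No ratio overlapped between the lines. The ratios were built from the same genes that were selected on this contrast, and no test was made of them.

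**Figure D3:**
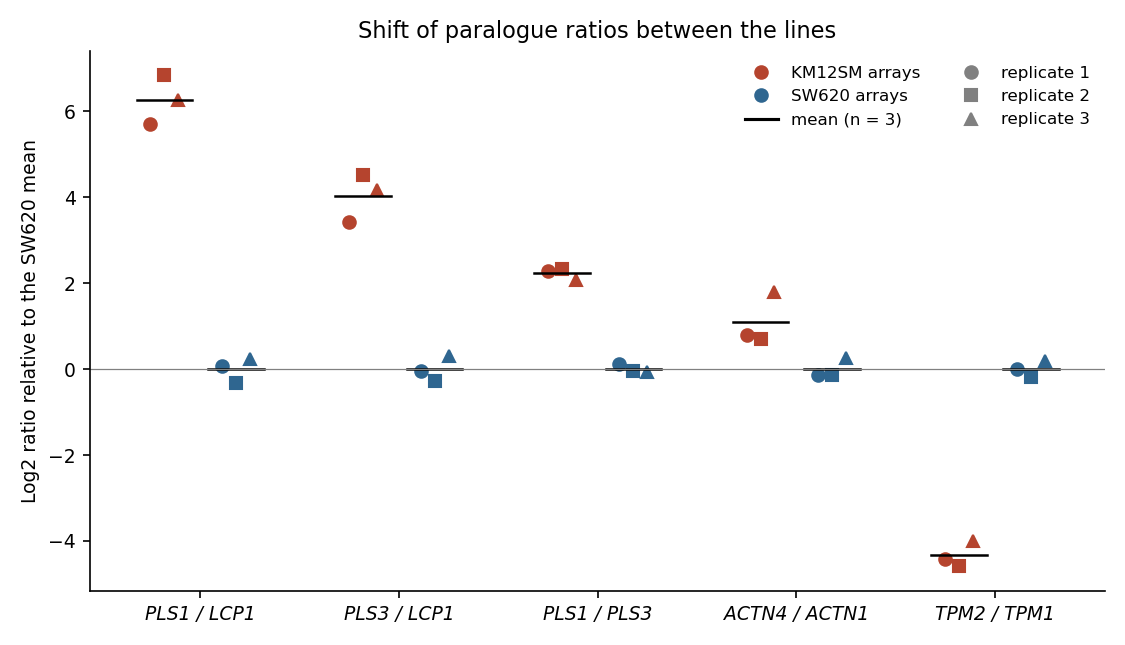
Log2 ratio of paralogue signals on each array (points) relative to the SW620 mean of that ratio, with a line at each mean (n = 3), KM12SM left of SW620. The KM12SM points of PLS1 over LCP1 lie between 5.70 and 6.84, and the lowest of TPM2 over TPM1 is at -4.59.

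Over the 10 genes, 2 were at least 2-fold higher in KM12SM and 5 at least 2-fold lower, beside 5.58% and 4.87% of all 21448 probe sets. All KM12SM arrays were above all SW620 arrays for 3 genes and below for 6, beside 19.1% and 18.6% of all probe sets. The genes were chosen on this contrast, so these counts describe them only. The 10 differences had a median of -0.98, against 0.01 over all probe sets. All 10 differences kept their sign in the 11 other settings tried, of which the replicate block could not change a difference. Array SDs within a line ran from 0.023 to 0.64, with a median of 0.15 for the members and 0.19 for all probe sets. KM12SM replicate 3 was the lowest of its line for ACTN1 and FSCN1 and the highest for PLS1, PLS3, CALD1, TPM1 and TPM2.

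Patterns closest to 4 of the genes were sought by the root mean square distance of the 6 centred signals, over 17686 other named genes. For LCP1 the nearest were MSANTD4 (0.291), RDX (0.296) and MAGED1 (0.326), with differences of -5.66, -5.44 and -5.16. For PLS1 they were SREBF2 (0.0606), a probe set annotated as MIR4728 (0.0661) and RSAD2 (0.0716), with differences of 1.10, 1.17 and 1.03. For PLS3 they were SLC16A14 (0.0372), DDRGK1 (0.0647) and TMSB4Y (0.0684), and for FSCN1 they were CHCHD2 (0.0348), RELA (0.043) and C19orf53 (0.0539). Each distance rests on 6 arrays of 2 lines.

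Other genes that act on actin were then counted, from 8 lists by role. Of 110 listed genes, 100 were measured, and limma called 20 higher in KM12SM, 19 lower and left 61 uncalled (adjusted p under 0.05 over all probe sets). That is 39% of the measured genes, beside 25% of all probe sets, of which 12.6% were higher and 12.4% lower. The median difference of the 100 genes was -0.05, against 0.01 for all probe sets. With the methods' t-test the counts were 13 higher and 15 lower (28%, beside 14.2% of all probe sets). With array weights they were 30 and 28 (58%, beside 47.0%). Without probe sets under the 25th percentile of mean signal, 41.3% of the regulators were called, beside 32.4% of the probe sets kept. Leaving out each array in turn, 30 of the 39 calls held every time. CTTN and MYH14 lost theirs without SW620 replicate 1 and FMNL1 without KM12SM replicate 1, while BAIAP2L1, MARCKSL1, TMOD2, GSN, FMNL2 and VASP did so without any 1 of 3 to 5 arrays.

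Bundlers and crosslinkers other than the members changed in both directions, with 5 higher, 3 lower and 12 not called of 20 measured. This count and those of the lists below stand beside 12.6% higher and 12.4% lower of all probe sets. DBN1, which encodes drebrin of dendritic spines, averaged 6.57 ± 0.21 in KM12SM and 9.02 ± 0.20 in SW620 (SD, n = 3 each), a difference of -2.45 ± 0.18 (SE) and adjusted p = 3.95e-08. BAIAP2, a membrane-bending adaptor for Rac and Cdc42, differed by -1.70 ± 0.19 (adjusted p = 5.47e-06). PALLD (palladin) was higher in KM12SM by 1.26 ± 0.18 (adjusted p = 7.39e-05), and SPTBN1, a beta-spectrin of the membrane skeleton, by 1.07 ± 0.19 (adjusted p = 0.00052). VIL1, a bundler of the microvillus core called villin, was lower in KM12SM, at -0.81 ± 0.21 (adjusted p = 0.00857). It was called in 13 of 14 other settings, but not by the methods' t-test (adjusted p = 0.137). Of 5 relatives of transgelin, CNN3 (-1.16 ± 0.17, adjusted p = 6.22e-05) and CNN2 (-0.70 ± 0.17, adjusted p = 0.00493) were lower, TAGLN2 (0.69 ± 0.16, adjusted p = 0.00463) was higher and 2 were not called. TAGLN and TAGLN2 thus had opposite signs. Of 8 other tropomyosins, tropomodulins and leiomodins, 1 was called, TMOD2, a pointed-end cap, at 0.66 ± 0.23 (adjusted p = 0.0487), and it was lost in 8 alternatives with adjusted p up to 0.281.

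Of 6 actins measured, 0 were called by limma, beside 25% of all probe sets. The counts were 0 at an unadjusted p under 0.05, 0 in the methods' t-test and 1 lower with array weights. Over all probe sets, those settings called 7361 of 21448, 14.2% and 47.0%. With only 6 genes, a count of 0 was not read as a result about actins. ACTB, beta-actin, differed by -0.31 (adjusted p = 0.293) and ACTG1, gamma-actin, by -0.35 (adjusted p = 0.206). On KM12SM replicate 3, ACTB was 9.85 and ACTG1 12.27, below the other 2 KM12SM arrays (10.38 and 10.51 for ACTB, 12.83 and 12.76 for ACTG1). The same array was low for ACTN1 and FSCN1, and its part in their differences is given by the values without it above.

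**Figure D4:**
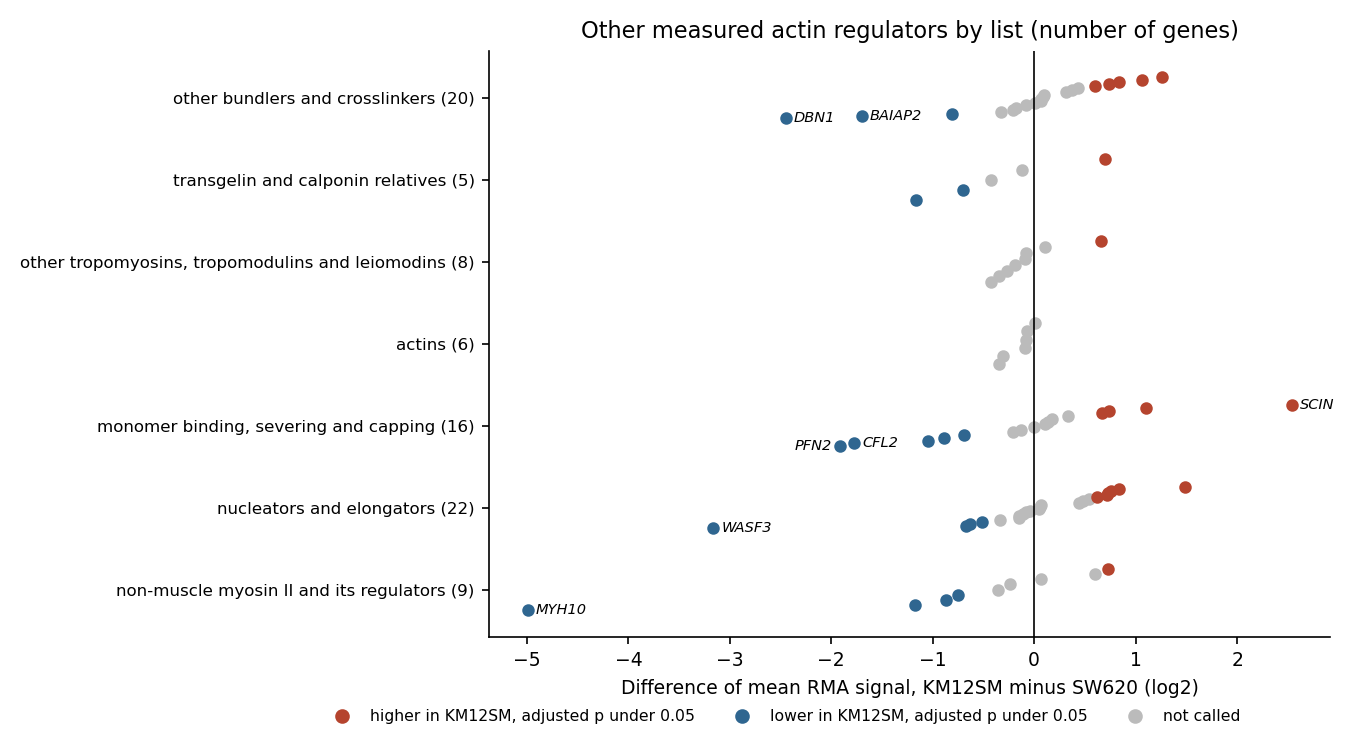
KM12SM minus SW620 difference in log2 signal (x axis) for 86 measured genes of 7 lists, 1 list per row, in red or blue where called higher or lower and in grey where not called. The extremes are MYH10 (-4.99) and WASF3 (-3.16) as the most negative and SCIN (2.54) as the most positive.

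Monomer-binding, severing and capping genes numbered 4 higher, 5 lower and 7 not called of 16. SCIN, scinderin of the gelsolin family, averaged 6.08 ± 0.32 in KM12SM and 3.54 ± 0.075 in SW620 (SD, n = 3 each), a difference of 2.54 ± 0.19 (adjusted p = 3.72e-08). Its mean over the 6 arrays lay under the 25th percentile of all probe sets, so the filter on low signals left it out and the list then had 3 higher of 15. CAPG, another capping protein of this family, was also higher at 1.10 ± 0.18 (adjusted p = 0.000213). PFN2 (profilin 2) and CFL2 (the muscle cofilin) were lower, at -1.91 ± 0.20 (adjusted p = 2.58e-06) and -1.77 ± 0.18 (adjusted p = 1.75e-06). Among 22 nucleators and elongators, 6 were higher and 4 lower. WASF3, a WAVE subunit that activates the Arp2/3 complex, averaged 4.09 ± 0.50 in KM12SM and 7.26 ± 0.48 in SW620 (SD, n = 3 each), a difference of -3.16 ± 0.26 (adjusted p = 1.39e-07). WASF2, its paralogue, was higher at 0.83 ± 0.16 (adjusted p = 0.00119), opposite in sign to WASF3. WASL (N-WASP) was higher by 1.49 ± 0.20 (adjusted p = 3.44e-05) and ARPC4, an Arp2/3 subunit, by 0.75 ± 0.17 (adjusted p = 0.00412).

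Non-muscle myosin II, the motor that pulls on bundled filaments, had 1 of 9 genes higher and 4 lower. MYH10, the heavy chain IIB, had signals of 5.40, 5.53 and 5.51 in KM12SM, against 10.52, 10.77 and 10.13 in SW620. The lines did not overlap, and its difference of -4.99 ± 0.19 (SE) was 31.9-fold lower in KM12SM (adjusted p = 2.08e-11). MYH9, the heavy chain IIA, averaged 10.13 in KM12SM and 10.06 in SW620, a difference of 0.07 (adjusted p = 0.829). The light chain genes MYL9 (-1.18 ± 0.19, adjusted p = 0.000253), MYL12A (-0.87 ± 0.17, adjusted p = 0.00118) and MYL12B (-0.75 ± 0.16, adjusted p = 0.00251) were lower. LIMK2, the kinase that inactivates cofilin, and SSH1, the phosphatase that reactivates it, were higher by 0.85 ± 0.17 (adjusted p = 0.00113) and 0.70 ± 0.18 (adjusted p = 0.0105). SSH1 was not called by the methods' t-test (adjusted p = 0.0899). SRF, the serum response factor, differed by 0.04 (adjusted p = 0.892), and its coactivators MRTFA and MRTFB by -0.21 (adjusted p = 0.466) and 0.43 (adjusted p = 0.107).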

How the data were processed

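The authors hybridised labelled total RNA of KM12SM and SW620 to 6 Clariom S human arrays, 3 per line, and deposited RMA values on the log2 scale, made in Transcriptome Analysis Console (version not given in the sources used here). RMA corrects the background, normalises and summarises probes per gene, and the deposited values were used unchanged. All columns were mapped to a sample. Gene names came from the platform annotation: 17709 probe sets had 1 symbol, 0 had several and 3739 were unnamed here. Where several probe sets carried a gene's name (20 genes), that with the highest mean was used. Depth does not apply to arrays, and 3 arrays per line limit the precision.

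Differences were computed with limma 3.58.1 (lmFit and eBayes, two-sided, no block) in R 4.3.3 on the 21448 probe sets together, calling those with a Benjamini-Hochberg adjusted p under 0.05. The scripts were tested on simulated data. The members and lists were chosen with earlier results of these data known. Named genes were the 10 members, up to 4 called genes of each list with the largest differences (1 such gene is left out), and the 3 nearest patterns of 4 members. ACTN2, ACTN3, FSCN2, FSCN3, TPM4, VIL1, MYH9, ACTB, ACTG1, SRF, MRTFA, MRTFB, the markers and the genes whose calls were lost were named after their values were seen. Listed genes with no named probe set were not analysed here. 1 of the 8 lists enters the totals only and is not reported here on its own. Settings tried otherwise were median centring, quantile normalisation, a filter at the 25th percentile, a replicate block, trend and robust eBayes, array weights, the methods' t-test and omission of arrays. Promoters came from a RefSeq table, and protein sequences were not used here.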

Additional observations from a re-analysis of the deposited data

How the results depend on the processing

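Over all probe sets, limma called 2708 higher and 2654 lower in KM12SM. Array weights, whose fit did not fully converge, gave 5050 and 5028, and the methods' t-test 1499 and 1539 (6405 at an unadjusted p under 0.05 and 3038 after Benjamini-Hochberg). Among the other actin regulators, 20 were higher and 19 lower, against 13 and 15 with the t-test and 30 and 28 with array weights. Without replicate 3 of both lines, 2995 probe sets were higher and 3239 lower, and 18 and 21 regulators. With array weights the PLS1 difference was 0.96 and the ACTN4 difference 0.36, so that PLS1 came under 2-fold. Without KM12SM replicate 3 the FSCN1 difference was -0.08 and the ACTN1 difference -0.44. Leaving out each array in turn gave 2102 to 2688 probe sets higher and 1952 to 2902 lower, and 16 to 22 regulators higher and 17 to 20 lower. Of 110 member values under other settings, 108 moved by less than the spread between replicates, 2 moved and 0 reversed. The replicate block could not move a member value, because both lines have the same replicate numbers. The spread was each gene's own SD, so an outlying array widens it. It was 0.46 for ACTN1 and 0.27 for FSCN1, so their changes without KM12SM replicate 3 did not count as moved. Of 321 adjusted p-values of listed regulators, 312 stayed on their side of the threshold and 9 became weaker. These cover only the called genes with the largest differences in each list, a choice that favours stable calls. Other called genes named above were not among them. Of 14 other settings, SPI1 was called in 6, KRT18 in 7, VASP in 8, GSN in 9 and VIL1 in 13. Centring the arrays shifted the median of all probe sets by -0.043 and quantile normalisation by -0.025. The share of higher among calls was 50.5%, against 45.4% after centring.

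The arrays were not treated as paired by replicate number. Same-numbered arrays of the 2 lines correlated in their deviations with r of 0.058, 0.095 and 0.149, which is not over 0.1 for every pair. KM12SM replicates 1 and 3 correlated best with their own number, and KM12SM replicate 2 with SW620 replicate 1 (0.100). A replicate block gave 2888 higher and 2793 lower over all, and 20 and 21 among the regulators. The mean of all probe sets of a gene was not run, since every member has 1. No detection calls were available here, so signal over background was not tested. This limit covers the low LCP1, CALD1, WASF3 and MYH10 signals in KM12SM and the low SCIN signals in SW620.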
